A study of Mus musculus with 2 samples.

Results

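The genes described here are 10 genes that macrophages use to take up dead cells and lipid and to carry and break down what they have taken up: Trem2, Mertk, Axl, Cd36, Msr1, Apoe, Fabp5, Lpl, Gpnmb and Spp1. They were chosen by symbol, and each symbol named exactly 1 of the 27998 genes counted. Their transcripts were followed through 2 single-cell libraries of healed dorsal skin from male C57BL/6J mice of wild-type genotype, 6 to 8 weeks old. In WT_LW, a circular wound 1.8 cm across was sprayed with PBS on days 0, 3 and 6, and in TLR9agonist_LW a wound of the same size was sprayed with ODN2395, a synthetic CpG oligodeoxynucleotide that activates Toll-like receptor 9 (TLR9). PBS is the control the sample labels name, whereas a figure legend of the study names a control oligodeoxynucleotide for wounds called WT_LW, and which of them the control library received could not be settled. Both were collected 2 days after the scab detached, a time set by healing and not by days since wounding. The study reports faster healing with the agonist, so the libraries may differ in days since wounding, which the labels do not give. Each library pooled cells of several mice, so the study has 1 sample per group, no difference between the libraries has a replicate check, and no test between them was possible. Differences between the pooled mice, the preparations, the time since wounding and the treatment cannot be told apart. The comparison asks how these genes were distributed over the immune cells of the wound with and without the agonist.

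Wound macrophages come largely from blood monocytes that enter the injured skin and clear dead neutrophils, membrane debris and lipid. TREM2 senses lipids and lipoproteins at the cell surface, MERTK and AXL bind dying cells through bridging proteins, and CD36 and MSR1 are scavenger receptors for modified lipoproteins. Cholesterol and fatty acids taken up in this way are handled by apolipoprotein E, fatty acid binding proteins and lipases, and macrophages with a large lipid and lysosome load are known to make GPNMB and osteopontin, the product of Spp1.

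The deposited cells of WT_LW and TLR9agonist_LW held 99374045 and 132339022 unique molecular identifiers (UMIs, the counted molecules), and 10395 and 11811 cells were used, with a median of 5519 and 6080 UMIs per cell. Of the barcodes used, 33 occurred in both libraries. Levels are given as UMIs per 1000000 UMIs of the same cells (CPM) with an exact Poisson 95% interval, and a ratio between libraries carries an exact 95% interval given the counts. These intervals cover counting error only. Clusters that carried macrophage, monocyte or dendritic markers formed a class of 1840 cells in WT_LW and 1395 in TLR9agonist_LW. Within it AIM-like cells (anti-inflammatory macrophage markers such as Mrc1, Pf4 and C1qb) numbered 505 and 468. PIM-like cells (pro-inflammatory macrophage markers such as Inhba, Ptgs2 and Mmp12) numbered 174 and 128. Of the markers that gave these names, the 11 AIM markers summed to 15885 and 21734 CPM in AIM-like cells against 4105 and 2756 CPM in PIM-like cells, and the 8 PIM markers summed to 344 and 472 CPM against 5191 and 6576 CPM. In the PIM-like cluster 7 of the 8 PIM markers passed the thresholds for naming, among them Arg1, and Nos2 did not. The members Gpnmb and Spp1 were among the leading genes of this cluster. The AIM-like cells joined 4 clusters, of which the Il10-Rcan1-led cluster (197 and 128 cells) rested on 5 markers and had none of them among its leading genes. A Thbs1-Tnfsf14-led cluster (299 and 183 cells), a Lyz1-Tppp3-led cluster (116 and 44 cells) and a cluster of cycling cells (47 and 47 cells) stayed unnamed.

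By position in GRCm38, Trem2 lies on chromosome 17 at 48346401 to 48354147 and Gpnmb on chromosome 6 at 49036546 to 49070929. Spp1 (104435118 to 104441050) and Cd36 (17781690 to 17888801) are both on chromosome 5. Axl (25757273 to 25788705) and Apoe (19696109 to 19699188) are on chromosome 7, and Msr1 (39581685 to 39642673) and Lpl (68880491 to 68907448) on chromosome 8. Mertk lies on chromosome 2 at 128698956 to 128802894, and Fabp5 on chromosome 3 at 10012548 to 10016607. RefSeq promoter sequences (GRCm38.p6) were matched for 7 of the 10 genes. The 250 bases before the start site are shown for Gpnmb, the member with the highest ratio between the libraries over the whole class, for Trem2, which was lower in TLR9agonist_LW over the whole class, and for Spp1, which together with Gpnmb peaked in PIM-like cells. They lie at chr6:49036268-49036517 on the plus strand, chr17:48346151-48346400 on the plus strand and chr5:104434861-104435110 on the plus strand, and capitals mark matches, on either strand, to the motifs named after the sequences.
Gpnmb: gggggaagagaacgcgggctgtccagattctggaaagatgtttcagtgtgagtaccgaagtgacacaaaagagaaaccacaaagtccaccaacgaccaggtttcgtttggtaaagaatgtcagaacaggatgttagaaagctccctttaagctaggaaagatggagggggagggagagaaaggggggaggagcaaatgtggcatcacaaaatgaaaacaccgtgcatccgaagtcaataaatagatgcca
Trem2: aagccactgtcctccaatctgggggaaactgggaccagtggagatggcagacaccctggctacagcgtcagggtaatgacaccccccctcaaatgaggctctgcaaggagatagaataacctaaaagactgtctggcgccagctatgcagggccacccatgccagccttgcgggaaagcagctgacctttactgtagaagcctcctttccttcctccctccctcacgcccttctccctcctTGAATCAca
Spp1: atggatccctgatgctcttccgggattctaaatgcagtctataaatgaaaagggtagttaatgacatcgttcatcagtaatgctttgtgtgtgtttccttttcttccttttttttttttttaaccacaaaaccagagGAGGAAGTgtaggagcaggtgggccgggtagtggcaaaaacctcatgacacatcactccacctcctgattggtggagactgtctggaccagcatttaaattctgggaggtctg
Searched were CACGTG, an E-box, and TCATGTG, a motif bound by the MITF and TFE factors of lysosomal genes. The others were TGANTCA, an AP-1 motif, and GAGGAAGT, a PU.1 motif, and no match overlapped another. Trem2 held TGANTCA 9 bases before its start, and Spp1 held GAGGAAGT 113 bases before its first listed start. The Gpnmb window held none of these letter strings, nor did those of the other matched members or the second listed start of Spp1. Over 32851 promoter windows of this length, 6.02% held CACGTG, 3.25% TCATGTG, 6.75% TGANTCA and 2.44% GAGGAAGT.

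In both libraries 6 of the 10 had their highest level in the macrophage, monocyte and dendritic class among the 10 cell classes: Trem2, Mertk, Cd36, Msr1, Apoe and Gpnmb. The members were chosen as macrophage genes, and the share of all genes that peak in this class was not computed. The class held 86.5% of the Trem2 UMIs in each library and 88.5% and 89.4% of the Msr1 UMIs. Its share was 72.9% and 77.0% for Cd36, and 57.9% and 51.1% for Gpnmb, of which fibroblasts held 23.5% and 35.0%. Mertk was spread more widely: the class held 54.6% and 37.8% of its UMIs, and fibroblasts held 7.73% and 32.9%. Apoe was shared with keratinocytes, which held 15.9% of its UMIs in WT_LW and 31.1% in TLR9agonist_LW. Fabp5 was a keratinocyte gene first: keratinocytes held 69.4% and 82.8% of its UMIs, and the class only 12.1% and 5.10%.

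**Figure D1:**
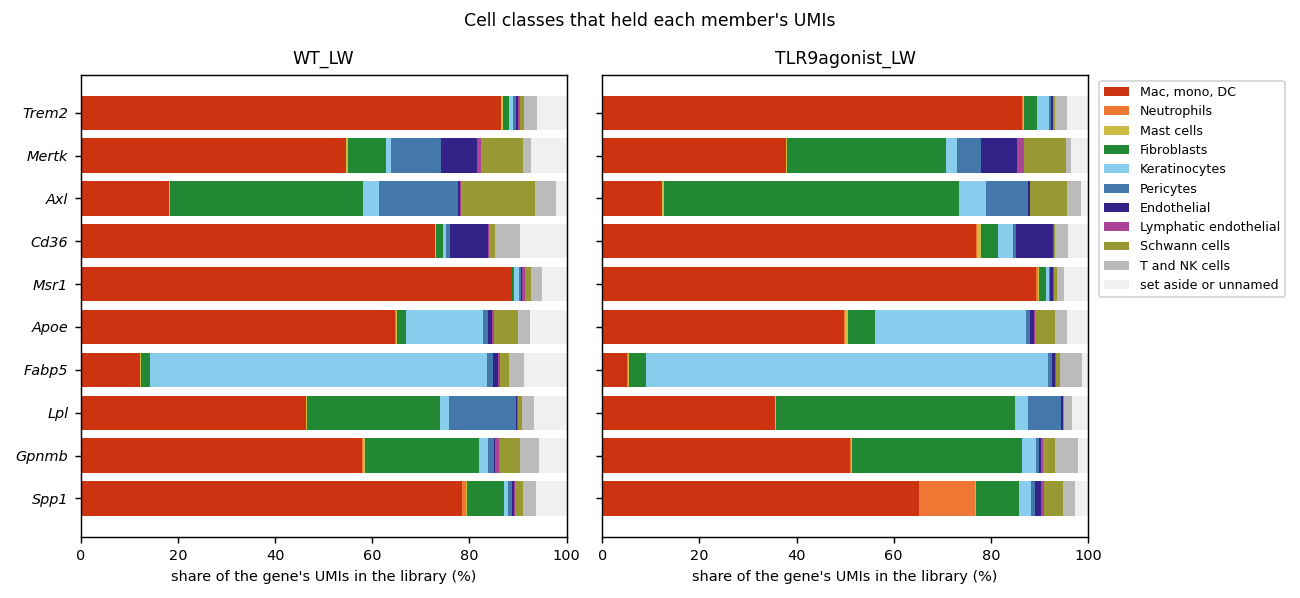
Share of each gene's UMIs (horizontal axis, percent of the UMIs of the library) held by each cell class, in WT_LW (left) and TLR9agonist_LW (right). Trem2 and Msr1 lay mostly in the macrophage, monocyte and dendritic class (at least 86.5% of UMIs), Fabp5 mostly in keratinocytes (69.4% and 82.8%), and Axl mostly outside the class.

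Axl, the TAM receptor, and Lpl, lipoprotein lipase, were also genes of the stroma. Axl stood at 248 CPM (235 to 262) in pericytes of WT_LW, 203 CPM in fibroblasts, 197 CPM in Schwann cells and 76.1 CPM (72.2 to 80.0) in the class. In TLR9agonist_LW the same cells had 135, 121, 146 and 59.3 CPM, so the class came behind the same 3 cell classes in both libraries. In WT_LW, Lpl had 218 CPM (206 to 231) in pericytes, 205 CPM (198 to 211) in the class and 148 CPM in fibroblasts, and it had 140, 226 (218 to 234) and 128 CPM in TLR9agonist_LW. The intervals of pericytes and the class overlapped for Lpl in WT_LW and not in TLR9agonist_LW. Spp1 showed its largest difference outside the class, in neutrophils, where it stood at 498 CPM (406 to 605, 69 cells) in WT_LW and 2684 CPM (2551 to 2822, 232 cells) in TLR9agonist_LW, a log2 ratio of 2.43 (2.14 to 2.74). In thinned neutrophils the share with a Spp1 UMI was 23.0% and 41.4%, against 2.67% and 2.42% of T and NK cells. Neutrophils, at 0.664% and 1.96% of the cells used, held 0.806% and 11.5% of all Spp1 UMIs.

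**Figure D2:**
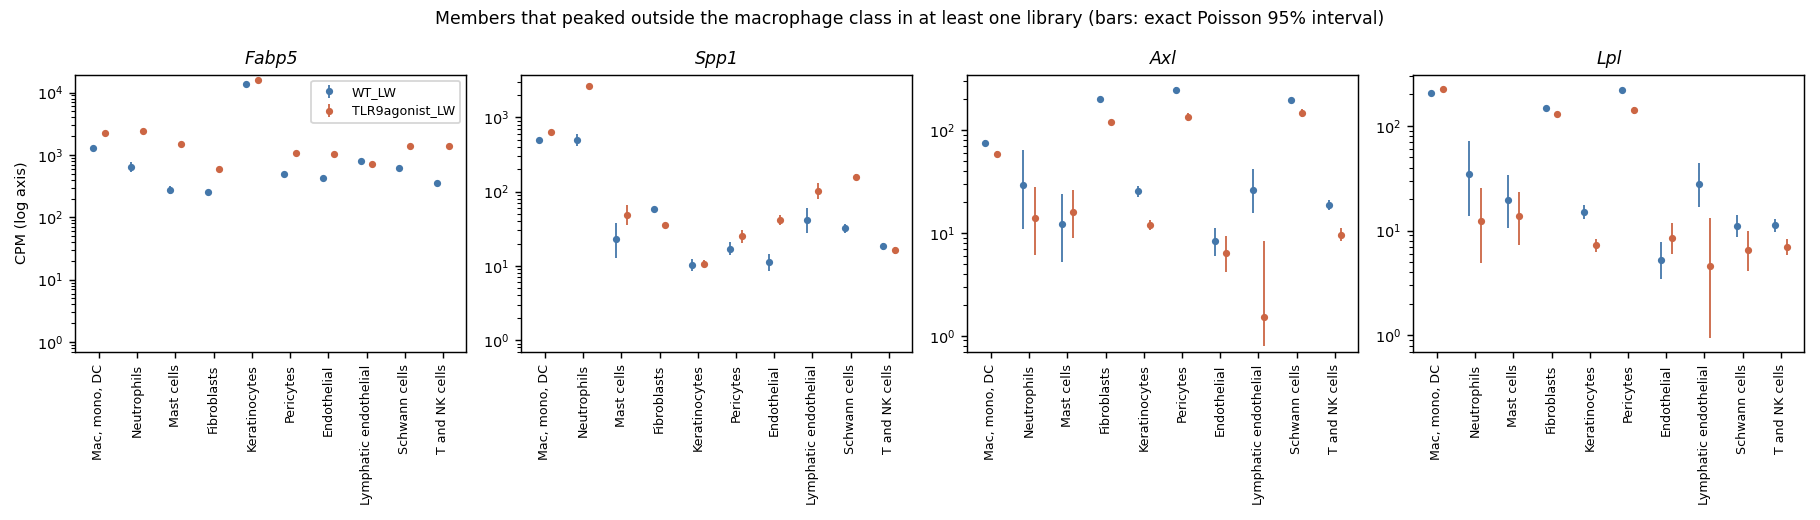
CPM (log axis) of Fabp5, Spp1, Axl and Lpl in 10 cell classes, blue for WT_LW and orange for TLR9agonist_LW, with exact Poisson 95% intervals. Fabp5 was highest in keratinocytes, Axl was higher in pericytes, fibroblasts and Schwann cells than in the macrophage class, and Spp1 in neutrophils was 498 CPM in WT_LW and 2684 CPM in TLR9agonist_LW.

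Over all cells, Fabp5 and Gpnmb were at least 2-fold higher in TLR9agonist_LW, 2 of 10 members beside 3.80% of the 15442 genes with at least 50 UMIs over both libraries, and Gpnmb fell under 2-fold with equal weight per cell and without the 5 cells of each library that held most of its UMIs. Trem2 and Msr1 were at least 2-fold lower, 2 of 10 beside 11.7% of the same genes. Trem2 stood at 60.6 CPM (58.9 to 62.2) in WT_LW and 17.9 CPM (17.1 to 18.7) in TLR9agonist_LW, a log2 ratio of -1.76, and Msr1 at 23.3 and 8.92 CPM, a log2 ratio of -1.38. The macrophage, monocyte and dendritic class held 22.9% of all UMIs counted in WT_LW and 12.1% in TLR9agonist_LW, so whole-library values mix cell numbers with levels. With the cell classes of TLR9agonist_LW weighted as in WT_LW, the ratios became -0.90 for Trem2 and -0.48 for Msr1, 0.44 for Fabp5 and 1.52 for Gpnmb. Levels within the class and its subsets follow from here.

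Within the class, only Gpnmb passed 2-fold: 1 of 10 members was higher, beside 3.38% of 11216 genes, and 0 of 10 were lower, beside 4.07%. The median log2 ratio of the 10 members was -0.07, against -0.26 for all genes tested in the class. Gpnmb, a transmembrane glycoprotein of lysosomes, stood at 98.5 CPM (94.2 to 103) in WT_LW and 340 CPM (330 to 350) in TLR9agonist_LW. Next came Fabp5 with 1277 and 2211 CPM, and Trem2 in the other direction with 228 CPM (222 to 235) and 128 CPM (122 to 134). The log2 ratio was -0.52 (-0.76 to -0.28) for Mertk, -0.44 (-0.56 to -0.32) for Msr1 and -0.36 (-0.49 to -0.23) for Axl. It was 0.32 (0.21 to 0.42) for Cd36, 0.36 (0.32 to 0.40) for Spp1 and 0.14 (0.07 to 0.21) for Lpl. Apoe, with 7010 and 5761 CPM, differed by -0.28 on the log2 scale, close to the median gene. With each cell given equal weight the Gpnmb ratio was 0.94 in place of 1.79, under 2-fold, and without the 5 cells of each library that held most Trem2 UMIs Trem2 was just past 2-fold lower.

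Genes that belong to other cells also differed between the libraries within the class. The 14 keratinocyte markers summed to 423 CPM in the class of WT_LW and 1564 CPM in that of TLR9agonist_LW, the 8 neutrophil markers to 127 and 963 CPM, and the 8 fibroblast markers to 1140 and 2065 CPM. None of the keratinocyte or fibroblast markers was at 0, and 1 neutrophil marker was. Their part in the results on members was not tested. T and NK cells were used for comparison, although activated T cells are known to make osteopontin and some T cells of skin to make FABP5. Whether their Spp1 and Fabp5 counts were their own transcripts or background was not tested. From WT_LW to TLR9agonist_LW the T and NK cells held 7.25 and 2.52 CPM of Trem2, 7.09 and 22.2 CPM of Gpnmb, 18.3 and 16.3 CPM of Spp1, 282 and 200 CPM of Apoe, and 355 and 1389 CPM of Fabp5. For all 5 genes this level lay below the level in AIM-like and PIM-like cells of the same library. For Fabp5, however, the T and NK cells were also higher in TLR9agonist_LW, and by a larger ratio than the class, whose log2 ratio was 0.79. Only the absolute gap in CPM was about as wide in T and NK cells as in the class.

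Most members were highest in AIM-like or PIM-like cells, some by small margins. Among the 10 subsets of the class, 5 members were highest in PIM-like cells in both libraries (Trem2, Cd36, Lpl, Gpnmb and Spp1). Another 3 were highest in AIM-like cells in both (Mertk, Axl and Apoe). The share of all genes that peak in each subset was not computed, so these counts describe the members only. Trem2 was 1.14-fold higher in PIM-like than in AIM-like cells of WT_LW and 1.94-fold in TLR9agonist_LW. Cd36 in PIM-like cells was 1.20-fold and 1.12-fold above the Lyz1-Tppp3-led cells. Axl was 1.12-fold and 1.60-fold higher in AIM-like than in PIM-like cells. Fabp5 was highest in migratory DC-like cells, which held 4142 and 6084 CPM in the 2 libraries, and PIM-like cells came next. Msr1 had no constant peak: it was highest in the Lyz1-Tppp3-led cells of WT_LW, at 176 CPM (155 to 200), and in the AIM-like cells of TLR9agonist_LW, at 122 CPM (111 to 134). Trem2 and Mertk were low in most dendritic subsets: cDC1-like, migratory DC-like and Langerhans-like cells had between 0 and 12.8 CPM of Trem2 and between 0 and 1.11 CPM of Mertk. The other dendritic subset, cDC2 or monocyte-derived DC-like cells, ranked below Langerhans-like cells for Trem2 in both libraries. For Mertk it ranked above those 3 subsets in both. With 3 counts as the limit that a count of 0 allows, 0 Mertk UMIs in 54 and 46 cDC1-like cells leave room for up to 3.87 and 5.64 CPM.

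**Figure D3:**
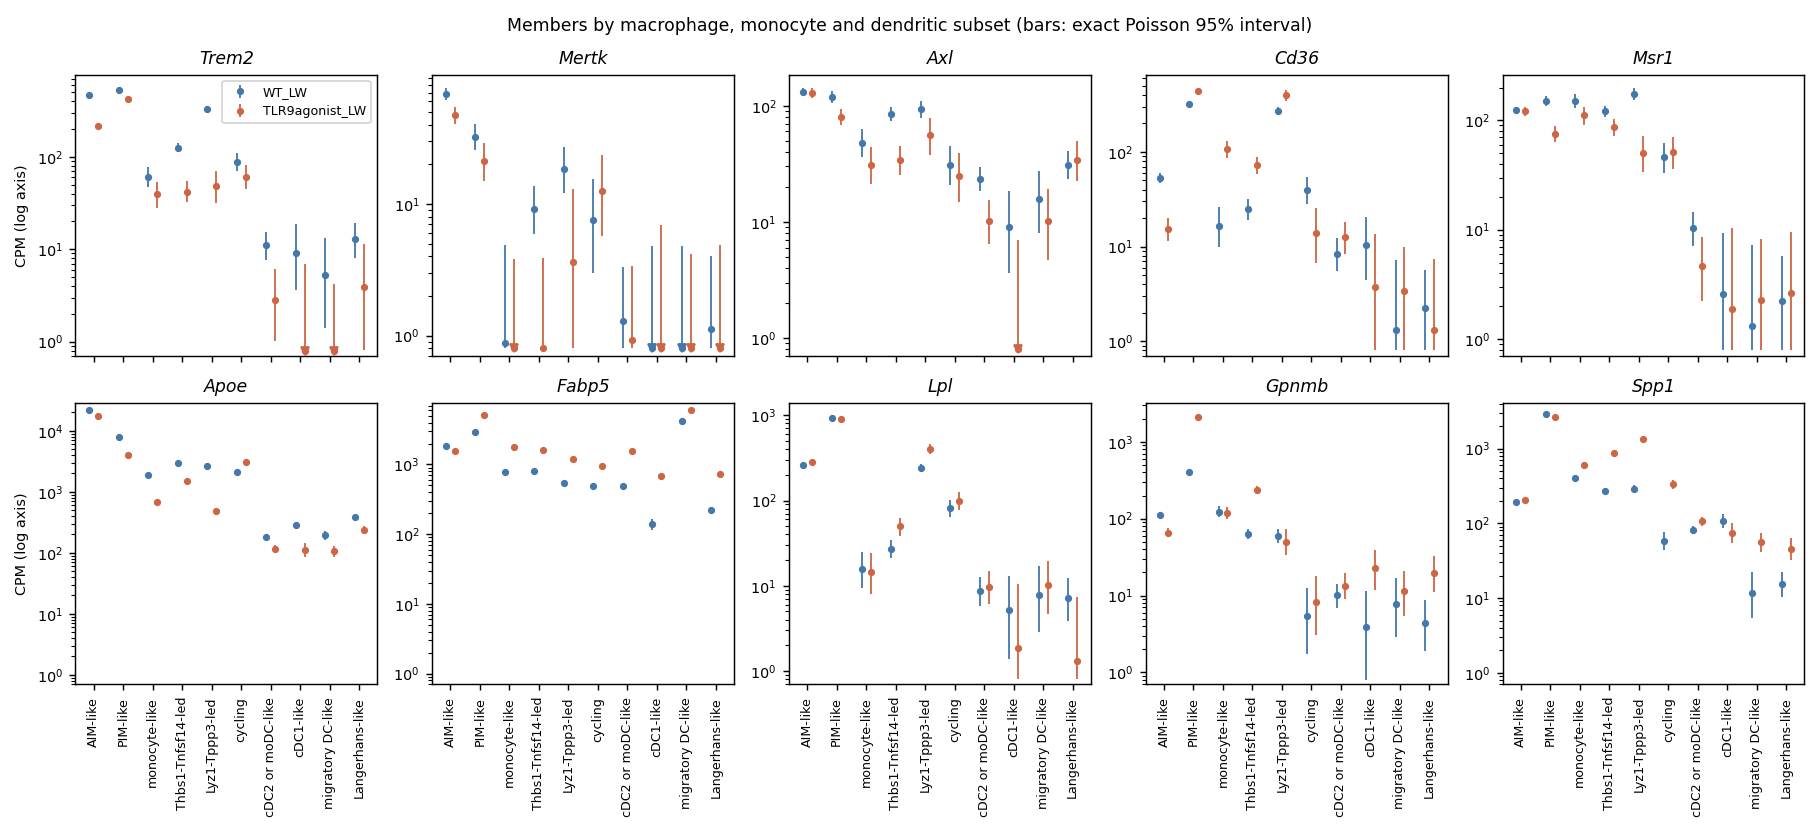
CPM (log axis) of the 10 genes in 10 subsets of the macrophage, monocyte and dendritic class, blue for WT_LW and orange for TLR9agonist_LW, with exact Poisson 95% intervals. Triangles at the lower edge are counts of 0, and points and bars are cut at that edge. Gpnmb and Spp1 peaked in PIM-like cells and Apoe and Mertk in AIM-like cells in both libraries.

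At least 2-fold higher in PIM-like than in AIM-like cells in both libraries were 4 of the 10 members (Cd36, Lpl, Gpnmb and Spp1), beside 3.97% of 6971 genes, and at least 2-fold lower were 2 of 10 (Mertk and Apoe), beside 9.07%. The subsets were cut from the same cells, so this is a description without a test, although the 10 genes and the wider gene list were kept out of the clustering. With cells assigned by their markers 2 were higher (Cd36 and Spp1). Without the correction between libraries Gpnmb was not among those higher, and 1 was lower (Apoe). Spp1, which encodes the secreted matrix protein osteopontin, stood at 2898 CPM in PIM-like and 193 CPM in AIM-like cells of WT_LW, 15.03-fold apart, and at 2604 and 204 CPM in TLR9agonist_LW, 12.7-fold apart. Lpl, with 936 against 260 CPM and 891 against 280 CPM, kept a difference of 3.60-fold and 3.19-fold. Both contrasts were of similar size in the 2 libraries.

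For Cd36 and Gpnmb the contrast was much wider in TLR9agonist_LW. Cd36, the fatty acid and oxidised lipoprotein receptor, stood at 323 CPM (300 to 346) in PIM-like and 53.4 CPM (47.1 to 60.5) in AIM-like cells of WT_LW, 6.04-fold apart. In TLR9agonist_LW it stood at 444 CPM (414 to 476) and 15.2 CPM (11.5 to 19.8), 29.2-fold apart. Gpnmb stood at 401 CPM (376 to 428) and 113 CPM (104 to 123) in WT_LW, 3.55-fold apart, and at 2087 CPM (2021 to 2155) and 65.7 CPM (57.6 to 74.6) in TLR9agonist_LW, 31.8-fold apart. The counting intervals of the 2 libraries did not overlap in either subset for either gene. The AIM marker sums of AIM-like and PIM-like cells were also further apart in TLR9agonist_LW (21734 and 2756 CPM) than in WT_LW (15885 and 4105 CPM). By ratio the PIM marker sums were not, at 472 and 6576 CPM in TLR9agonist_LW and 344 and 5191 CPM in WT_LW. The part of such differences between the subsets in the Cd36 and Gpnmb contrasts was not tested.

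Apoe and Mertk ran the other way. Apoe, the lipid-carrying apolipoprotein, stood at 21494 CPM in AIM-like and 7894 CPM in PIM-like cells of WT_LW, 2.72-fold apart, and at 17755 and 4048 CPM in TLR9agonist_LW, 4.39-fold apart. Mertk, a receptor for the bridging proteins Gas6 and protein S on dying cells, stood at 68.7 and 32.3 CPM in WT_LW and at 47.1 and 21.1 CPM in TLR9agonist_LW, 2.13-fold and 2.24-fold apart. Axl differed less, with 132 and 119 CPM in WT_LW, where the intervals overlapped, and 129 and 80.3 CPM in TLR9agonist_LW.

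**Figure D4:**
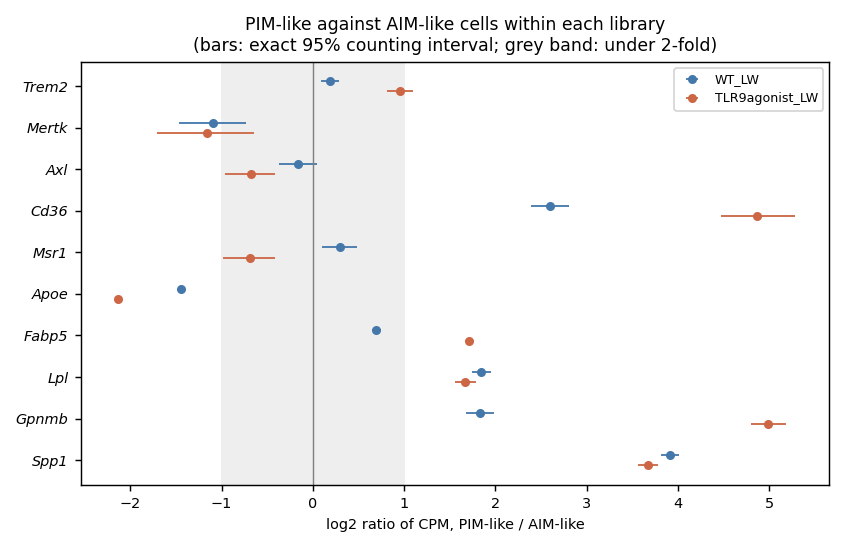
log2 ratio of the CPM in PIM-like over AIM-like cells (horizontal axis) for the 10 genes, blue for WT_LW and orange for TLR9agonist_LW, with exact 95% counting intervals. Outside the grey band of 2-fold in both libraries lie Spp1, Cd36, Lpl and Gpnmb on the right and Apoe and Mertk on the left, and Gpnmb (3.55-fold and 31.8-fold) and Cd36 (6.04-fold and 29.2-fold) differ most between the libraries.

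In AIM-like cells, Trem2 and Cd36 were at least 2-fold lower in TLR9agonist_LW, 2 of 10 members beside 2.99% of 8485 genes, and 0 of 10 were higher, beside 2.82%. Trem2, the lipid-sensing receptor, stood at 467 CPM (447 to 487) in WT_LW and 217 CPM (202 to 232) in TLR9agonist_LW, a log2 ratio of -1.11 (-1.23 to -0.99). It was lower in each of the 4 AIM-like clusters: 501 against 236 CPM in the Arhgap19-Rapsn-led, 424 against 160 CPM in the Il10-Rcan1-led, 329 against 202 CPM in the Ifit3b-Ifit2-led and 706 against 551 CPM in the small Folr2-Cbr2-led cluster, where the interval of the ratio included 0. Cells with at least 10 Trem2 UMIs made up 14.3% of AIM-like cells in WT_LW and 1.92% in TLR9agonist_LW. This share depends on depth, and the median depth of AIM-like cells was 8989 and 7475.5 UMIs. After thinning every cell to 1500 UMIs, 39.0% and 26.0% of AIM-like cells had a Trem2 UMI, against 1.39% and 0.422% of T and NK cells (78.6% and 59.8% of AIM-like cells before thinning). Over 10 alternative settings the ratio ran from -1.35 to -0.85, past 2-fold in 8 of them.

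Cd36 in AIM-like cells rested on few cells. Its log2 ratio was -1.81 (-2.26 to -1.38), from 253 and 55 UMIs. The 29 Folr2-Cbr2-led cells of WT_LW carried 121 of the 253 UMIs, at 376 CPM, and the 13 of TLR9agonist_LW carried 11 of 55, at 110 CPM. The Arhgap19-Rapsn-led cells (41 and 20 UMIs) and the Il10-Rcan1-led cells (83 and 22 UMIs) were lower too, with log2 ratios of -0.89 (-1.73 to -0.08) and -0.95 (-1.70 to -0.26), and the Ifit3b-Ifit2-led cells held 8 and 2 UMIs, too few to compare. Gpnmb in AIM-like cells differed by -0.78 (-1.01 to -0.56), and passed 2-fold in 3 of the 10 alternative settings, with -1.61 as its lowest value, without the correction between libraries. Mertk differed by -0.54 (-0.82 to -0.27). Axl (-0.04), Msr1 (-0.02), Spp1 (0.08) and Lpl (0.10) had ratios whose intervals included 0. Their signs were not stable: Spp1 stood at -1.20 without the correction between libraries, and Lpl, Axl and Msr1 each had the other sign in 3 of 10 settings.

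In PIM-like cells, Gpnmb was at least 2-fold higher in TLR9agonist_LW, 1 of 10 members beside 2.71% of 6054 genes, and Msr1 at least 2-fold lower, 1 of 10 beside 8.08%. Gpnmb was 5.20-fold higher, a log2 ratio of 2.38 (2.28 to 2.48). Markers of other cells differed in the same subset: the 9 monocyte markers summed to 800 and 2666 CPM (0 and 2 of them at 0), the 8 neutrophil markers to 232 and 723 CPM (2 and 1 at 0) and the 14 keratinocyte markers to 425 and 1137 CPM (none at 0). Their part in the Gpnmb ratio was not tested. Part of that sum came from a few cells: 1 cell of TLR9agonist_LW held 691 of 3768 UMIs and 5 cells held 43.3% of them, against 87 of 958 UMIs and 32.5% in WT_LW. Without the 5 highest cells of each library the log2 ratio was 2.23, and with equal weight per cell it was 1.45. The share of thinned PIM-like cells with a Gpnmb UMI was 21.0% (15.1 to 27.9) in WT_LW and 48.8% (39.8 to 57.9) in TLR9agonist_LW, and before thinning it was 37.4% and 68.8%. In T and NK cells it was 1.16% and 2.66% after thinning. Median depth was 13086 and 12845.5 UMIs in PIM-like cells and 4194 and 4483 UMIs in T and NK cells.

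Msr1, the class A scavenger receptor, stood at 152 CPM (136 to 168) in PIM-like cells of WT_LW and 75.3 CPM (63.2 to 89.1) in those of TLR9agonist_LW, a log2 ratio of -1.01 (-1.30 to -0.72), while AIM-like cells had 123 and 122 CPM. It passed 2-fold in 5 of the 10 alternative settings, which ran from -1.24 to -0.54. Apoe was lower too, by -0.96, from 7894 to 4048 CPM, and without the correction between libraries, which assigned 166 and 76 cells to this subset, its ratio was 0.86. That clustering also turned the ratios of Trem2 (0.57) and Mertk (0.35) above 0. Trem2 otherwise stood at 531 and 420 CPM, a ratio of -0.34 (-0.47 to -0.21), with 1 cell of TLR9agonist_LW holding 103 of 759 UMIs. Axl (-0.56) and Mertk (-0.62) were lower, and Spp1 (-0.15) and Lpl (-0.07) differed little, beside -0.28 for the median gene of the subset. The last 2 had the other sign in 6 and 8 of the 10 settings, up to 0.34 and 0.50, and Mertk reached -2.90 in thinned cells. Fabp5, the cytosolic fatty acid binding protein of epidermis and macrophages, was higher at 2952 and 5047 CPM, past 2-fold in 4 of the 10 alternative settings, and its difference in T and NK cells is given above. In thinned cells, Trem2, Gpnmb and Spp1 were detected together in 7.78% (4.21 to 12.9) of PIM-like cells of WT_LW and in 18.4% (12.0 to 26.3) of those of TLR9agonist_LW, in 2.21% and 0.649% of AIM-like cells, and in 0 of 3442 and 0 of 3795 T and NK cells, which allows a share of up to 0.0872% and 0.0791%.

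**Figure D5:**
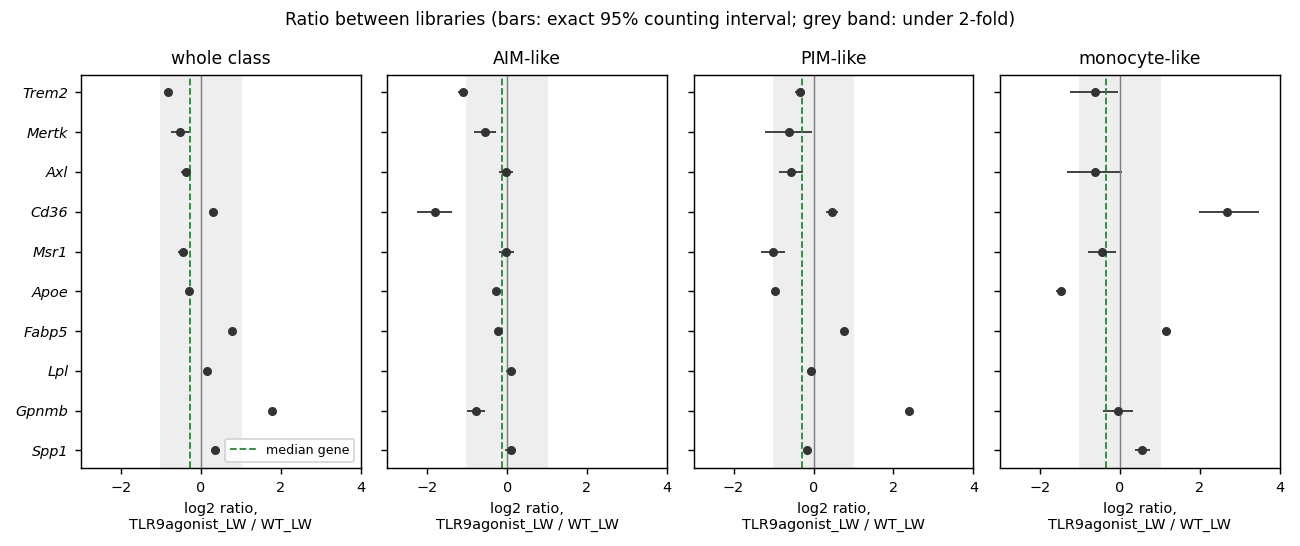
log2 ratio of TLR9agonist_LW over WT_LW (horizontal axis) for the 10 genes in the whole class and in AIM-like, PIM-like and monocyte-like cells, with exact 95% counting intervals. Mertk and Lpl are not drawn for monocyte-like cells, where they had under 50 UMIs, and the dashed line is the median gene. Gpnmb lies at 2.38 in PIM-like and -0.78 in AIM-like cells, and Cd36 at 2.69 in monocyte-like and -1.81 in AIM-like cells.

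In monocyte-like cells 8 members had enough counts. Cd36 and Fabp5 were at least 2-fold higher in TLR9agonist_LW, 2 of 8 beside 3.16% of 4236 genes, and Apoe at least 2-fold lower, 1 of 8 beside 11.0%. Cd36 stood at 16.6 CPM (9.99 to 25.9, 19 UMIs) in the 162 cells of WT_LW and 107 CPM (87.1 to 129, 103 UMIs) in the 123 cells of TLR9agonist_LW, a log2 ratio of 2.69 (1.97 to 3.48). Thinned cells with a Cd36 UMI made up 1.85% and 11.4%, against 0.523% and 0.422% of T and NK cells. Apoe stood at 1869 and 676 CPM, a ratio of -1.47 (-1.60 to -1.34), and Fabp5 at 786 and 1761 CPM. Which cells counted as monocyte-like depended on the processing, from 151 to 637 cells in WT_LW and from 35 to 294 in TLR9agonist_LW over the clusterings, and the Cd36 ratio was 0.27 when single cells were assigned by their markers. The Apoe ratio was -0.18 with the members among the variable genes, and Fabp5 was at least 2-fold higher in each of the 10 settings. None of these settings removed background transcripts, and the difference of Fabp5 in T and NK cells is given above. Msr1 was about as high as in macrophages, with 151 and 111 CPM, while Lpl (15.7 and 14.5 CPM) and Mertk (1 UMI and 0 UMIs) were low. The keratinocyte markers summed to 519 and 1849 CPM in these cells, and the PIM markers to 795 and 2863 CPM.

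In the 2 unnamed clusters without cycling genes, Trem2 was lower and Spp1 higher in TLR9agonist_LW. In Lyz1-Tppp3-led cells Trem2 stood at 327 CPM (298 to 359) in the 116 cells of WT_LW and 48.5 CPM (32.0 to 70.6) in the 44 cells of TLR9agonist_LW, and Apoe at 2651 and 478 CPM. Spp1 in the same cells was higher in TLR9agonist_LW, at 292 and 1323 CPM, and Cd36 stood at 269 and 395 CPM. Lyz1-Tppp3-led cells were named by their leading genes only, and Cd36 itself is among those leading genes. In Thbs1-Tnfsf14-led cells Gpnmb stood at 63.4 and 239 CPM, Spp1 at 272 and 883 CPM, and Trem2 at 126 and 42.1 CPM. Subset markers moved with these values. The 11 AIM markers summed to 5383 and 2107 CPM in Lyz1-Tppp3-led cells and to 3399 and 1850 CPM in Thbs1-Tnfsf14-led cells, while the 8 PIM markers summed to 670 and 2743 CPM and to 1114 and 3473 CPM. Their part in the differences of the members was not tested.

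Fabp5 calls for separate reading. It was higher in TLR9agonist_LW in 9 of the 10 cell classes, with log2 ratios of 1.97 in T and NK cells, 2.42 in mast cells, 1.91 in neutrophils and 1.21 in fibroblasts, and 0.22 in keratinocytes themselves, from 13493 to 15768 CPM. Lymphatic endothelial cells, with 793 and 710 CPM, were the exception. AIM-like cells differed by -0.24 (-0.29 to -0.19), from 1820 to 1539 CPM, and by 0.08 with equal weight per cell and 0.11 after thinning, although thinned AIM-like cells with a Fabp5 UMI made up 58.8% and 83.3%, beside 38.7% and 86.3% of T and NK cells. The keratinocyte marker sum in AIM-like cells was 449 and 1863 CPM, and the part of such transcripts in the Fabp5 levels was not tested.

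A wider list of 45 genes of the same pathways, 44 of them counted, put these values in context. In the class, 3 of the 41 with enough counts were at least 2-fold higher (Pparg, Apoc1 and Ctsk), beside 3.38% of all genes, and 1 was lower (Marco), beside 4.07%. The median log2 ratio of the list was -0.17, against -0.26 for all genes. None of the 4 partners of TREM2 passed 2-fold in the class, among them Tyrobp, its signalling adaptor, with 1580 and 1197 CPM. Pparg, a nuclear receptor for fatty acids, was at 6.46 and 13.05 CPM, and Apoc1, an apolipoprotein, at 8.85 and 24.2 CPM. Ctsk, a collagen-degrading lysosomal protease, was at 30.3 and 72.1 CPM. Marco, a scavenger receptor, rested on 50 and 7 UMIs.

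The subsets again differed. In PIM-like cells 4 of 34 list genes were at least 2-fold higher, beside 2.71% of all genes: Mfge8, a bridge between dying cells and integrins, with 66.2 and 851 CPM, Fabp4 with 65.3 and 176 CPM, Ctsl with 1073 and 3036 CPM, and Ctsk with 176 and 388 CPM. At least 2-fold lower were 4 of 34, beside 8.08%: Gas6, the ligand of MERTK and AXL (27.6 and 11.6 CPM), Stab1, a receptor for phosphatidylserine (45.7 and 17.2 CPM), Scarb1 and Cd300lb. In AIM-like cells 3 of 37 were higher (Olr1, Apoc1 and Ctsk), beside 2.82%, and 1 was lower, beside 2.99%: Ctsd, a lysosomal protease, at 1176 and 477 CPM. In monocyte-like cells 1 of 26 was higher (Apoc1), beside 3.16%, and 1 lower (Npc1), beside 11.0%. Comparing PIM-like with AIM-like cells, 7 of 36 list genes were at least 2-fold higher in both libraries (Olr1, Mfge8, Lipa, Ctsl, Ctsk, Lgals3 and Cd9), beside 3.97%, and 4 were lower (Gas6, Stab1, Itgb5 and Itga9), beside 9.07%. Over all cells 1 of 43 was higher (Apoc1), beside 3.80%, and 6 were lower (Tyrobp, Marco, Cd300lb, Abcg1, Nr1h3 and Soat1), beside 11.7%. The shares of list genes that were lower lay near those of all genes, except in monocyte-like cells, where the share of list genes was smaller.

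The genes most like each member were found by correlating log2(CPM + 10) over 38 points of both libraries with at least 20 cells. These points were the subsets of the macrophage, monocyte and dendritic class and the other cell classes. They share libraries, and many are subsets of 1 class, so the correlations are descriptions. Nearest to Trem2 were C1qb and C1qc (r = 0.92 for both), complement genes of macrophages, and nearest to Msr1 were C3ar1 (0.94) and Cndp2 (0.94). Spp1 lay nearest to Esd (0.91) and Clec4e (0.90), Cd36 to F7 (0.87) and Lyz1 (0.86), and Apoe to Fam213b (0.86) and Abcc3 (0.83). Mertk lay nearest to Man1c1 (0.87) and Sepp1 (0.82), and Axl to Itgb5 (0.84) and Lrp1 (0.81). Gpnmb lay nearest to Samd8 (0.82) and Fam20c (0.81), Lpl to Fam20c (0.77) and Pon3 (0.77), and Fabp5 to Car13 (0.83) and 2610528A11Rik (0.78). Among the members, Trem2 and Msr1 were the closest pair (r = 0.90), followed by Trem2 and Apoe (0.79), while the highest r of Fabp5 was 0.26, with Apoe.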

How the data were processed

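Single-cell RNA of 2 libraries, WT_LW and TLR9agonist_LW, was measured with 3′ chemistry from 10x Genomics. Dead cells were removed before loading, reads were processed with Cell Ranger (4.0.0 per the file headers), and the counts deposited by the authors are whole UMIs for barcodes called as cells, with no normalization. The submitters' processing notes name fastp, Seurat and the build mm9. Of the 27998 gene identifiers, 27722 (99.0%) matched GENCODE M21 (GRCm38), from which positions were taken. The deposited barcode and gene lists give other information, names only.

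Cells with at least 500 UMIs, 300 genes and at most 15% mitochondrial UMIs were kept, 11443 and 13206 of 12800 and 13751. The highest Scrublet scores of scanpy 1.11.5, at a rate that grew with cell number, were removed as doublets (1048 and 1395 cells), and doublets remain. Clustering used 2000 variable genes without the members and the pathway list, 30 components, a Harmony correction written for these data, 20 neighbours and Leiden clustering (leidenalg 0.10.2) at resolution 1, then 1500 genes and 20 components within the class. A cluster was named when at least 3 markers, each in at least 10% of cells, had a log2 fold of at least 0.5. Clusters led by another class or with few UMIs were set aside (687 and 784 cells). This rule was revised after the clusters had been seen, so shares of subsets follow from it.

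The members, lists and markers were chosen with earlier results of these data known. All 10 members were named, with list genes past 2-fold and the 2 most similar genes per member among those with at least 200 UMIs. A gene was compared when it had at least 50 UMIs in the cells concerned over both libraries. With 1 library per group no p-value was computed. Intervals are exact 95% intervals (Poisson, conditional binomial for ratios, Clopper-Pearson for shares) and cover counting error only. Cells with under 1500 UMIs were left out of thinned shares, 7 and 3 of the PIM-like cells, 7 and 6 of the AIM-like cells and 252 and 115 of the T and NK cells. Levels of different genes are not ranked against each other. The ratio and its interval were tested on simulated Poisson counts only. These held no spread between cells or mice, so that test cannot show how the intervals perform with such spread.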

Additional observations from a re-analysis of the deposited data

Results flagged for a closer look

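Cd36, Fabp5 and Gpnmb differed in opposite directions between the libraries in AIM-like and PIM-like cells, with counting intervals that excluded 0 on both sides. This difference between the subsets was not tested, since each group has 1 library. The log2 ratio of TLR9agonist_LW over WT_LW was -0.78 for Gpnmb in AIM-like cells and 2.38 in PIM-like cells. For Cd36 it was -1.81 in AIM-like cells and 0.46 in PIM-like cells. For Fabp5 it was -0.24 in AIM-like cells and 0.77 in PIM-like cells, but in AIM-like cells it was above 0 when each cell had equal weight (0.08) and when cells were thinned (0.11).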

How the results depend on the processing

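The counts of members past 2-fold and of members highest in a subset were recomputed under 9 alternatives chosen at the start: a stricter cell filter, no removal of doublets, clustering without Harmony, a Leiden resolution of 2, members kept among the variable genes, a per-cell marker gate, equal weight per cell, centring on the median gene and thinned cells. Keeping the cells set aside from the class and leaving out the 5 highest cells of each member were added after the data were seen. The counts in AIM-like, PIM-like and monocyte-like cells were added to this comparison at the same stage. With equal weight per cell, 1 member was higher over all cells, 0 in the class, and 2 were lower in PIM-like cells. With centring, 1 member was lower over all cells, 2 were higher in the class (Gpnmb and Fabp5), 1 was lower in AIM-like cells, and 2 were higher and 0 lower in PIM-like cells. Without Harmony, 4 members were lower in AIM-like cells (Trem2, Cd36, Gpnmb and Spp1), 2 were higher and 0 lower in PIM-like cells, 3 were lower in monocyte-like cells, and 1 was lower in PIM-like than in AIM-like cells. In thinned cells, 0 were lower in AIM-like cells, where Cd36 had too few UMIs, 0 were lower in PIM-like cells, 1 was higher in monocyte-like cells, and 1 was lower in PIM-like than in AIM-like cells. The marker gate gave 0 lower in PIM-like cells, 3 lower in monocyte-like cells and 2 higher in PIM-like than in AIM-like cells. The stricter filter gave 2 lower in PIM-like cells, doublets kept gave 2 higher there, and each gave 4 higher and 3 lower in monocyte-like cells. Members among the variable genes gave 2 higher in PIM-like and 0 lower in monocyte-like cells. Without the 5 highest cells, 1 was higher over all cells, 1 was lower in the class (Trem2) and 2 were lower in PIM-like cells. The causes were not tested, and the remaining counts stayed within 1.5 times. Of 377 ratios recomputed for single members, 233 stayed inside the counting interval of the reported value and 144 moved out of it. Gpnmb in PIM-like cells ranged from 1.45 to 3.79, Cd36 in AIM-like cells from -2.71 to -1.25, and Msr1 in PIM-like cells from -1.24 to -0.54. The gate took 75.5% of the clustered PIM-like cells and 77.5% of the AIM-like cells. In PIM-like cells the ratios of Apoe, Trem2 and Mertk were above 0 without Harmony and below 0 under each other setting, and the cause was not tested. No paired analysis was possible because each group has 1 library.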

Other observations

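Members were also expressed, or at least counted, outside macrophages and neutrophils. Spp1 stood at 32.0 CPM (27.8 to 36.7) in Schwann cells of WT_LW and 159 CPM (146 to 173) in those of TLR9agonist_LW, and at 11.2 and 41.7 CPM in endothelial cells, while fibroblasts had 59.0 and 35.6 CPM. After thinning, the share of Schwann cells with a Spp1 UMI was 4.22% and 3.90%. Gpnmb stood at 48.5 CPM (45.2 to 52.1) in fibroblasts of WT_LW and 95.7 CPM (92.4 to 99.2) in those of TLR9agonist_LW. For Mertk, fibroblasts gave 4.09 CPM and 5.91 CPM (log2 ratio 0.53, 0.12 to 0.96), while it was lower in pericytes, at 16.2 and 7.04 CPM. Axl was lower in TLR9agonist_LW in keratinocytes, pericytes and fibroblasts, with log2 ratios of -1.10, -0.88 and -0.75, beside median genes of -0.52, -0.43 and -0.28.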
